A study of Mus musculus with 5 samples.

Results

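Matrix metalloproteinases are secreted or membrane-anchored zinc proteases that cut collagens, proteoglycans and other matrix proteins, and the tissue inhibitors of metalloproteinases (TIMPs) bind and block them. Described here are 9 genes of this system, 5 proteases (Mmp2, Mmp3, Mmp9, Mmp14 and Mmp15) and the 4 inhibitors Timp1 to Timp4. They were taken by gene symbol, and all 9 were found among the 19061 gene rows. The metalloproteinases are made as inactive precursors, and in the heart the balance of proteases and inhibitors is known to shape how the matrix between the cardiomyocytes is turned over during hypertrophy and injury.

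The libraries came from hearts of C57BL/6 mice at postnatal day 158, all carrying the calcineurin transgene MHC-CnATg. Its promoter, that of a cardiac myosin heavy chain, drives calcineurin in cardiomyocytes and causes severe hypertrophy. Mice received vehicle (2 libraries) or JIB-04 at 50 mg/kg (3 libraries), dosed 3 times a week from an age of 4 weeks. JIB-04 inhibits Jumonji histone demethylases. Vehicle mice carried the transgene too, and hearts without it were not analysed here. So the values compare treated with untreated hypertrophic hearts. The labels do not state that each library is a separate animal, so p-values measure the spread between these libraries, which may be technical. For JIB-04 replicate 3, 1 letter of the transgene name in the title is changed, and its genotype label matches the rest. Recovered depth was 32152168 to 37002846 reads per library. Ppp3ca, the gene of the calcineurin catalytic subunit, was at 6082 and 8022 CPM in vehicle and 7275, 4341 and 5421 CPM in JIB-04. The groups overlapped, with JIB-04 replicates 2 and 3 the lowest. Whether this had a part in the values below was not tested.

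Among the 9 genes, all 3 JIB-04 libraries had more Mmp3 and less Timp4 than either vehicle library, with group means 4.04 and 0.382 times those of vehicle. Timp1 was at 41.0 and 46.9 CPM in JIB-04 replicates 2 and 3, against 7.0 and 11.4 CPM in vehicle, but at 9.81 CPM in JIB-04 replicate 1. CPM is the heading of the values in the files, which were whole read counts times 1 factor per library. How the authors set that factor is not given in the sources used here. Mmp14 was also higher in every JIB-04 library, by less, and Mmp2, Mmp9, Mmp15, Timp2 and Timp3 had overlapping groups. The test was limma on log2(CPM + 1), adjusted by Benjamini-Hochberg over the 14414 genes tested, with a threshold of 0.05. By that test 0 of the 9 genes passed, and the share of all genes that passed was 0%. At an unadjusted p under 0.05 there were 4 of the 9 (Mmp3, Mmp14, Timp1 and Timp4), against 6.44% of all genes (3.93% higher and 2.51% lower). edgeR and limma-voom also called 0 of the 9 and 0% of all genes, with 946 and 872 genes at an unadjusted p under 0.05. DESeq2 called Mmp3 higher and Timp4 lower, where it called 0.455% of genes higher and 0.106% lower. The genes were chosen with such results known, so these counts are a description.

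**Figure D1:**
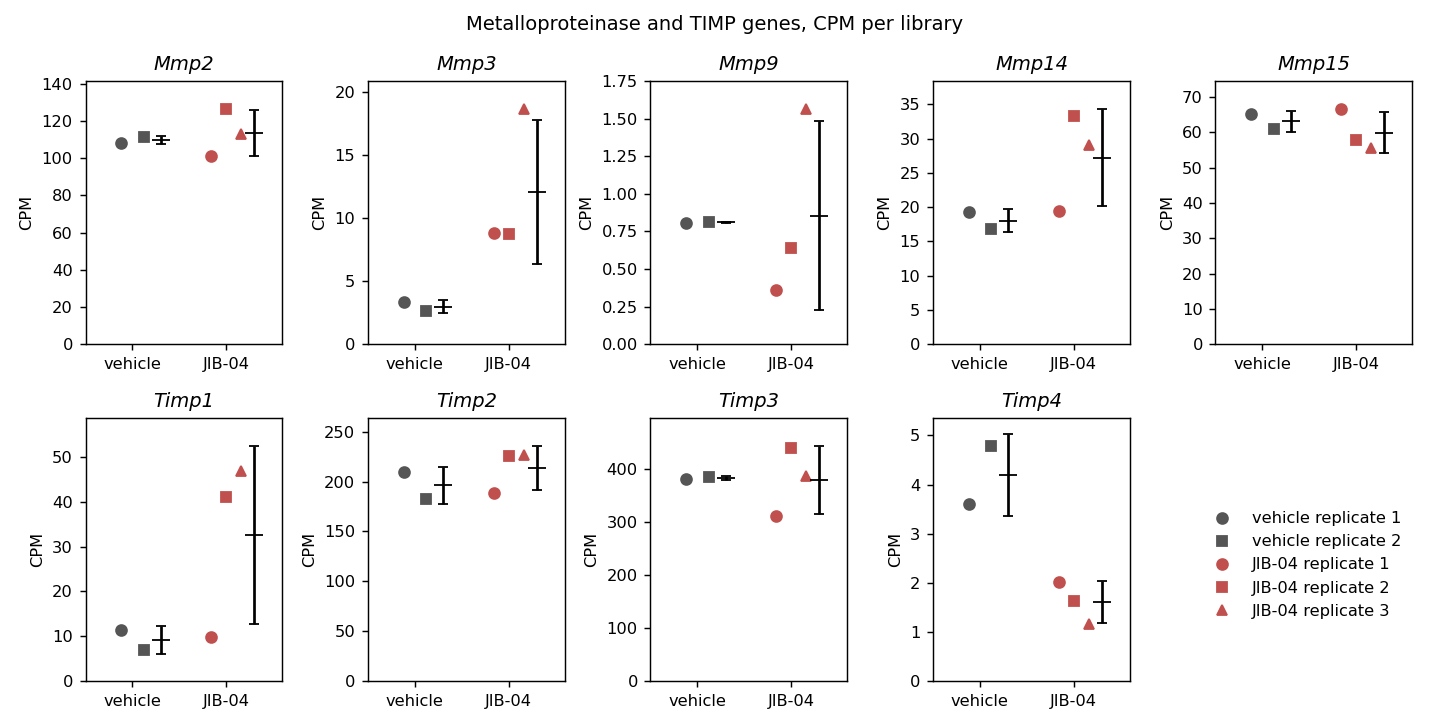
CPM of the 9 genes (vertical axes, each from 0) in the 2 vehicle libraries (grey) and the 3 JIB-04 libraries (red), with 1 point per library and the mean ± SD of each group in black. Every JIB-04 point is above vehicle for Mmp3 and below vehicle for Timp4, while Timp1 in JIB-04 replicate 1 lies at 9.81 CPM, between the vehicle values.

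Mmp3, or stromelysin 1, is a secreted protease that cuts proteoglycans, fibronectin and laminin and can activate other metalloproteinase precursors. It lies on chromosome 9 from 7445822 to 7455974 (mm10). Mmp3 stood at 3.33 and 2.64 CPM in vehicle and 8.82, 8.71 and 18.6 CPM in JIB-04. The groups did not overlap, and JIB-04 replicate 3 was the highest, with 655 recovered reads against 81 and 124 in vehicle. Counting error was smaller than the difference: the 95% exact Poisson interval ended at 3.97 CPM in the higher vehicle library and began at 7.78 CPM in the lower JIB-04 library. Such intervals cover counting error only. By limma the log2 fold change was 1.63 (SE 0.31, adjusted p = 0.426). On recovered reads, with no added pseudocount of 1 to compress low values, it was 2.02 with an SE of 0.36 by DESeq2 (DESeq2 adjusted p = 6.17e-05). Without vehicle replicate 2 that call was lost (DESeq2 adjusted p = 0.0905). The group means in CPM were 2.98 ± 0.49 (SD, n = 2) and 12.04 ± 5.69 (SD, n = 3). Every JIB-04 library lay above both vehicle libraries for Mmp3 and Mmp14, 2 of the 9 genes, against 10.7% of all genes tested.

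The 3 genes with the largest fitted differences, Mmp3, Timp1 and Timp4, are shown with the 250 bases before their RefSeq start on build GRCm38.p6, written 5′ to 3′ on each gene's strand. RefSeq promoters were matched for 7 of the 9 genes, all except Mmp2 and Mmp9. The letters of 2 motifs, searched on both strands, are in capitals, and their matches do not overlap. TGANTCA (N stands for any base) is the site of AP-1 factors, which are dimers of Fos and Jun proteins. The other, a core of ETS factor sites, is AGGAAG, and in the Timp4 window it lies on the opposite strand. The windows are chr9:7445572-7445821 (plus strand) for Mmp3, chrX:20869916-20870165 (plus strand) for Timp1 and chr6:115252206-115252455 (minus strand) for Timp4, whose RefSeq start lies beyond the span of the gene in the files.
Mmp3: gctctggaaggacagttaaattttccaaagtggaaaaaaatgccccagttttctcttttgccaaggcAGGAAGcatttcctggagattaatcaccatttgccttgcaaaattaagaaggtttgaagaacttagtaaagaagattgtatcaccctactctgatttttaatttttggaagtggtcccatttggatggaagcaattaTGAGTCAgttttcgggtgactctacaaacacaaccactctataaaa
Timp1: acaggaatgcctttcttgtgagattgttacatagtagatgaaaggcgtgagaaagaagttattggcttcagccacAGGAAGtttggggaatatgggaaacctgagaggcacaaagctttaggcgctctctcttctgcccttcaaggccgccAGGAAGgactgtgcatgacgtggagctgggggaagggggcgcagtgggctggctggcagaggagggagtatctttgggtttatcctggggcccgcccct
Timp4: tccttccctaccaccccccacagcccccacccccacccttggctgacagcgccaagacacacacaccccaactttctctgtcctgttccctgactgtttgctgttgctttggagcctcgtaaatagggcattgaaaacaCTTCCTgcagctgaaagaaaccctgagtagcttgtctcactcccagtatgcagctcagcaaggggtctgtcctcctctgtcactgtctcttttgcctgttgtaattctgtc
Mmp3 was the only 1 of the 7 with TGANTCA, found 46 to 40 bases before the start, where 6.75% of all 32851 promoter windows of this length hold it. AGGAAG was found in the windows of Mmp3, Mmp14, Timp1, Timp3 and Timp4, with 2 matches in Timp1, against 29.5% of all windows. Mmp15 and Timp2 held neither set of letters. A match is a run of letters and not a measured binding site.

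Mmp3 sits in a run of 6 metalloproteinase genes that spans 309 kb, with no other gene row between them. Mmp12, the macrophage elastase, starts at -98.4 kb from the start of Mmp3. It was at 0.54 and 0.36 CPM in vehicle and 0.48, 0.96 and 2.19 CPM in JIB-04, so JIB-04 replicate 1 lay between the vehicle libraries (limma log2 fold change 0.54, SE 0.30, adjusted p = 0.821). Mmp8, the neutrophil collagenase, starts 113 kb after Mmp3 and had 9 and 3 reads in vehicle and 11, 13 and 15 in JIB-04. Mmp13, an interstitial collagenase, had 5 and 5 reads in vehicle and 6, 15 and 9 in JIB-04, too few to be tested. Both were higher in every JIB-04 library, at under 0.5 CPM. Mmp10 had at most 1 read and Mmp27 at most 4 reads in a library. Mmp3 was the only gene of the cluster to reach 3 CPM in any library.

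**Figure D2:**
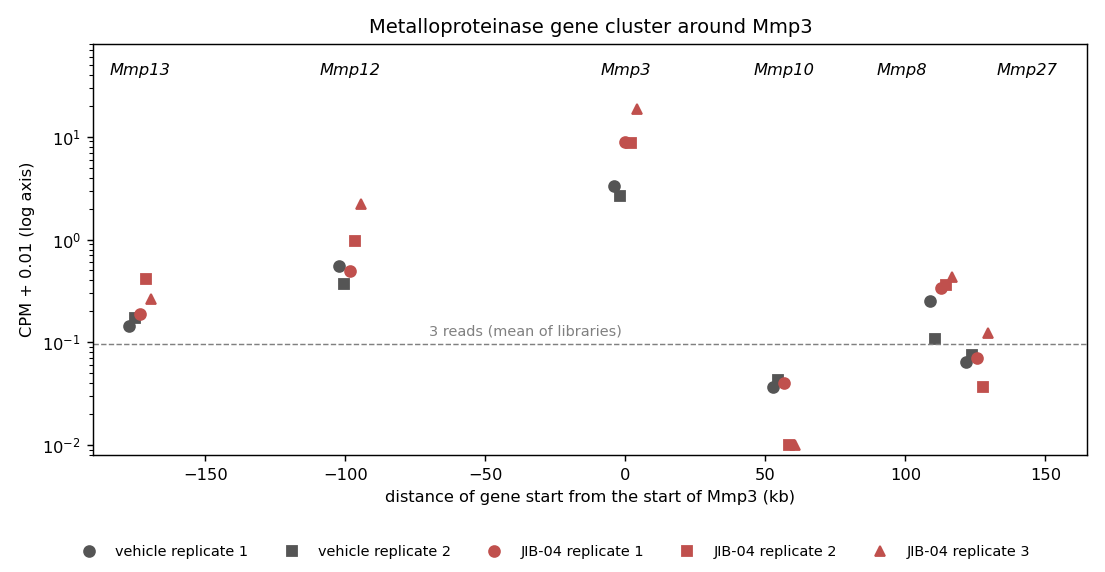
CPM + 0.01 on a log axis for the 6 genes of the cluster, by distance of each gene's start from that of Mmp3 in kb (points of 1 gene are shifted sideways by up to 4 kb). Grey points are vehicle and red points JIB-04, and the dashed line is the value of 3 reads. Mmp3 is the highest in all 5 libraries and Mmp10 lies under the line in each.

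The gelatinases Mmp2 and Mmp9 cut denatured collagen and basement membrane collagen. Mmp2 lies on chromosome 8 from 92827328 to 92853420 and Mmp9 on chromosome 2 from 164948219 to 164955849. Mmp2 had the highest CPM per exon length of the 5 proteases, and its CPM was 108 and 111 in vehicle and 101, 126 and 113 in JIB-04. The vehicle values lay inside the JIB-04 range, and by limma the log2 fold change was 0.04 (SE 0.10, adjusted p = 0.940). Mmp9, which is known from neutrophils and macrophages, was low, with 30 and 25 reads in vehicle and 12, 24 and 55 in JIB-04. In CPM it was 0.81 in both vehicle libraries and 0.36, 0.64 and 1.56 in JIB-04. JIB-04 held both the lowest and the highest Mmp9 value of the 5 libraries, and the interval of JIB-04 replicate 1 (0.19 to 0.63 CPM) did not reach that of replicate 3 (1.18 to 2.03 CPM). By limma the log2 fold change of Mmp9 was -0.02 (SE 0.26, adjusted p = 0.991), and its sign differed between tools. The 10 neutrophil markers in the files summed to 7.12 and 8.60 CPM in vehicle and 8.76, 6.70 and 17.6 CPM in JIB-04. JIB-04 replicate 3 was the highest there as for Mmp9. S100a8, S100a9, Csf3r and Cxcr2, which mature neutrophils express, were the only 4 of the 10 with enough reads to be tested. All 4 had positive limma log2 fold changes with overlapping groups. Csf3r was the highest of them, at 2.39 and 2.70 CPM in vehicle and 3.24, 2.60 and 6.36 CPM in JIB-04. Retnlg, Camp, Ltf and Ngp went the other way, with JIB-04 means 0.708, 0.581, 0.241 and 0.314 times those of vehicle. Their groups overlapped too, at no more than 10 reads in a library. Mpo and Elane, granule genes of neutrophil precursors, had no read in any library. The part of neutrophil genes in the Mmp9 values was not tested.

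Mmp14 and Mmp15 are anchored in the cell membrane, and Mmp14, bound to Timp2, is known as the activator of the Mmp2 precursor. Mmp14 lies on chromosome 14 from 54431604 to 54441258 and Mmp15 on chromosome 8 from 95352337 to 95374293. Mmp14 stood at 19.2 and 16.8 CPM in vehicle and 19.4, 33.2 and 29.0 CPM in JIB-04. JIB-04 replicate 1 was only just above the higher vehicle library, while replicates 2 and 3 stood apart from all others. By limma the log2 fold change was 0.54 (SE 0.21, adjusted p = 0.750). Without JIB-04 replicate 1, the treated library nearest to vehicle, it was 0.75 (limma adjusted p = 0.0559), a value for the other 4 libraries only. Mmp15 was at 65.1 and 61.0 CPM in vehicle and 66.5, 57.8 and 55.4 CPM in JIB-04, with overlapping groups and a limma log2 fold change of -0.08 (SE 0.09, adjusted p = 0.885).

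To set Mmp3 against the other proteases, its log2 CPM was compared in each library with the mean log2 CPM of Mmp2, Mmp9, Mmp14 and Mmp15. The difference was -2.45 and -2.73 in vehicle and -0.74, -1.19 and -0.31 in JIB-04. The groups did not overlap, and their means differed by 1.84 on the log2 scale. This difference was as large without JIB-04 replicate 1 (1.84) and between 1.62 and 2.06 without any other library. The value has no test, since the contrast was chosen with the results known. The limma log2 fold changes of the 4 other proteases ran from -0.08 to 0.54, all below that of Mmp3.

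**Figure D3:**
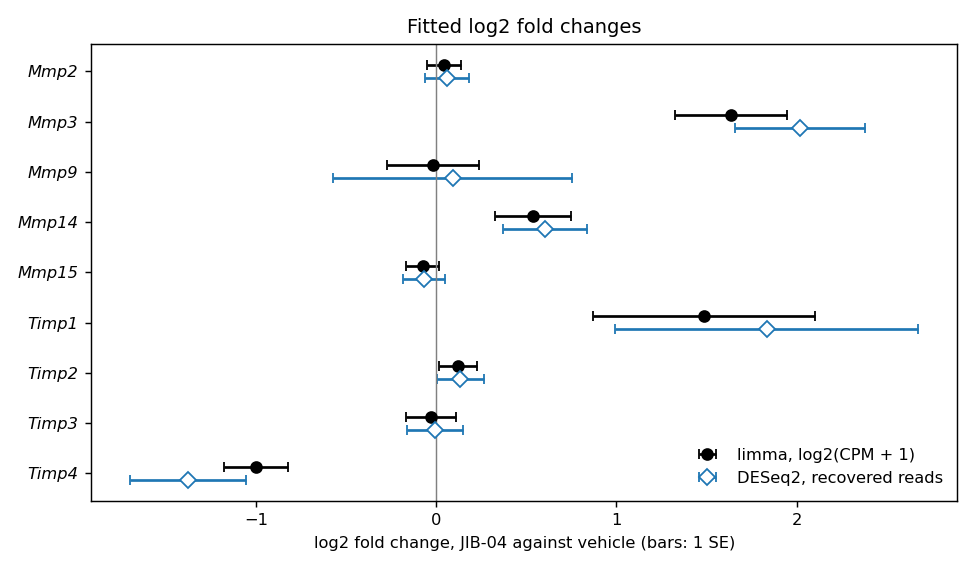
Fitted log2 fold changes of the 9 genes, JIB-04 against vehicle, with bars of 1 SE, by limma on log2(CPM + 1) (filled circles) and by DESeq2 on recovered reads (open diamonds). Mmp3 and Timp1 lie to the right of 1, Timp4 lies at -1.0 and -1.38, and Mmp2, Mmp9, Mmp15, Timp2 and Timp3 lie within 0.14 of 0.

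Timp1 is the TIMP best known for being induced in injured and fibrotic tissue. It lies on chromosome X from 20870166 to 20874737, inside an intron of Syn1 on the opposite strand by the GENCODE annotation, and Syn1 itself was at 0.26 to 0.38 CPM. Timp1 stood at 11.4 and 7.0 CPM in vehicle and 9.81, 41.0 and 46.9 CPM in JIB-04. JIB-04 replicate 1 lay between the vehicle libraries, and replicates 2 and 3 were several times higher than the other 3. With this spread within JIB-04 the limma log2 fold change of 1.49 had an SE of 0.62 (limma adjusted p = 0.770). Without JIB-04 replicate 1 Timp1 passed limma's threshold at a log2 fold change of 2.17 (limma adjusted p = 0.0312), where 0.188% of genes were called higher and 0.014% lower. The library left out is the 1 nearest to vehicle in Timp1, so that call describes the other 4 libraries only.

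Marker sums of macrophages and fibroblasts are set beside Timp1 here. The 13 macrophage markers in the files summed to 370 and 266 CPM in vehicle and 366, 501 and 570 CPM in JIB-04, with JIB-04 replicate 1 inside the vehicle range. The 10 fibroblast markers summed to 695 and 618 CPM in vehicle and 602, 857 and 828 CPM in JIB-04. Replicate 1 of JIB-04 was the lowest there and replicate 2 the highest, while Timp1 was highest in replicate 3. Of these 10 markers 0 were above vehicle in every JIB-04 library, against 10.7% of all genes, and 1 was below, against 12%. The 1 below was Scara5, at 7.09 and 6.51 CPM in vehicle and 5.94, 4.93 and 5.97 CPM in JIB-04. Pdgfra was at 52.2 and 54.8 against 53.9, 46.7 and 55.8 CPM. Scara5 and Pdgfra were the 2 of the 10 with negative limma log2 fold changes (-0.24 and -0.04). The other 8 were positive with overlapping groups, among them Pi16 (0.21), Dpt (0.20) and Ddr2 (0.19). No marker of either list was at 0 in all libraries. The macrophage sum is mostly Lyz2 and the complement genes C1qa, C1qb and C1qc. Of its 13 markers 6 were above vehicle in every JIB-04 library, against 10.7% of all genes. DESeq2 called 4 of them higher (Cx3cr1, Emr1, Itgam and Fcgr1), against 0.455% of all genes, and limma called 0. Cd163 and Mertk had negative limma log2 fold changes, of -0.11 and -0.12, with overlapping groups. Cx3cr1, a chemokine receptor of macrophages, was at 3.79 and 3.32 CPM in vehicle and 6.42, 11.3 and 11.1 CPM in JIB-04, so JIB-04 replicate 1 was above vehicle here, as it was for Mmp3. Their part in the Timp1, Mmp14 and Mmp3 values was not tested, and more cells of a type and more RNA per cell cannot be told apart in heart tissue.

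Timp4 is the TIMP known for its expression in the heart. It lies on chromosome 6 from 115245616 to 115251849, and stood at 3.60 and 4.79 CPM in vehicle and 2.01, 1.63 and 1.16 CPM in JIB-04. In recovered reads these were 134 and 147 against 67, 61 and 41. The groups did not overlap, and the JIB-04 mean was 0.382 of the vehicle mean. The lower vehicle library had an exact interval from 3.02 CPM and the highest JIB-04 library 1 up to 2.55 CPM. By limma the log2 fold change was -1.0 (SE 0.18, adjusted p = 0.399), and with DESeq2 it was -1.38 with an SE of 0.32 (DESeq2 adjusted p = 0.00689). That call was lost in 4 of 5 DESeq2 fits with 1 library left out (DESeq2 adjusted p from 0.0689 to 1.0). All JIB-04 libraries lay below vehicle for Timp4 alone, 1 of the 9 genes, against 12% of all genes tested.

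Timp4 lies inside Syn2, on the opposite strand, and exons of both overlap in the annotation. Whether the authors counted by strand is not given in the sources used here, so reads of the overlapping exons may not be told apart. Syn2 was at 3.68 and 3.39 CPM in vehicle and 3.42, 4.31 and 2.78 CPM in JIB-04, with overlapping groups. Summed red blood cell markers were lower in every JIB-04 library (1796 to 3571 CPM) than in vehicle (4876 and 7457 CPM), as were the 5 adipocyte markers in the files (7.02 to 8.68 against 9.15 and 9.62 CPM). The red cell sum counts the reads of 3 pairs of globin rows with identical values 2 times, Hba-a1 with Hba-a2, Hbb-b1 with Hbb-bs and Hbb-b2 with Hbb-bt. The adipocyte sum is almost all Pparg, which other cells also express (9.43 of 9.62 CPM in vehicle replicate 1). Among the adipocyte markers Adipoq, Plin1 and Cfd, which define adipocytes, were at most at 0.16 CPM. The endothelial and cardiomyocyte marker sums overlapped between groups, at 2339 to 2491 against 2404 and 2597 CPM and at 78281 to 94435 against 88417 and 99870 CPM. All 10 cardiomyocyte markers had negative limma log2 fold changes. Of them 3 (Pln, Mybpc3 and Csrp3) were below vehicle in every JIB-04 library, against 12% of all genes, and limma called 0. Whether cell content had a part in the Timp4 values was not tested.

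Timp2 and Timp3 had the highest group means of the inhibitors per kilobase of exon, although Timp1 was above Timp3 in JIB-04 replicate 3 (52.9 against 47.7 CPM per kb). Timp2 lies on chromosome 11 from 118301061 to 118355411 and Timp3 on chromosome 10 from 86300412 to 86349505. Timp2 also takes part in Mmp2 activation, and it stood at 209 and 183 CPM in vehicle and 189, 226 and 227 CPM in JIB-04 (limma log2 fold change 0.12, SE 0.11, adjusted p = 0.862). Timp3, which binds to the matrix and also blocks ADAM proteases, was at 380 and 385 CPM in vehicle and 311, 439 and 387 CPM in JIB-04. Its groups overlapped, with JIB-04 replicate 1 the lowest (limma log2 fold change -0.03, SE 0.14, adjusted p = 0.974). The sign of this value differed when no normalisation factor was applied (0.023). Timp3 lies inside Syn3 on the opposite strand, with 1 pair of overlapping exons, and Syn3 was at 0.42 to 0.85 CPM.

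Timp1 and Timp4 were set against each other as a ratio of CPM within each library. The ratio was 3.17 and 1.46 in vehicle and 4.88, 25.1 and 40.3 in JIB-04. The groups did not overlap, although JIB-04 replicate 1 was much nearer to vehicle than to the other JIB-04 libraries. On the log2 scale the group means differed by 2.98, from 1.11 ± 0.79 (SD, n = 2) to 4.09 ± 1.6 (SD, n = 3), and by 2.36 to 3.88 with 1 library left out. In JIB-04 replicate 1 Timp1 lay inside the vehicle range and Timp4 below it. Mmp3 over Timp1 was 0.29 and 0.38 in vehicle and 0.90, 0.21 and 0.40 in JIB-04, so it was highest in JIB-04 replicate 1 and the groups overlapped. None of these ratios has a test, as the pairs were chosen with the results known.

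**Figure D4:**
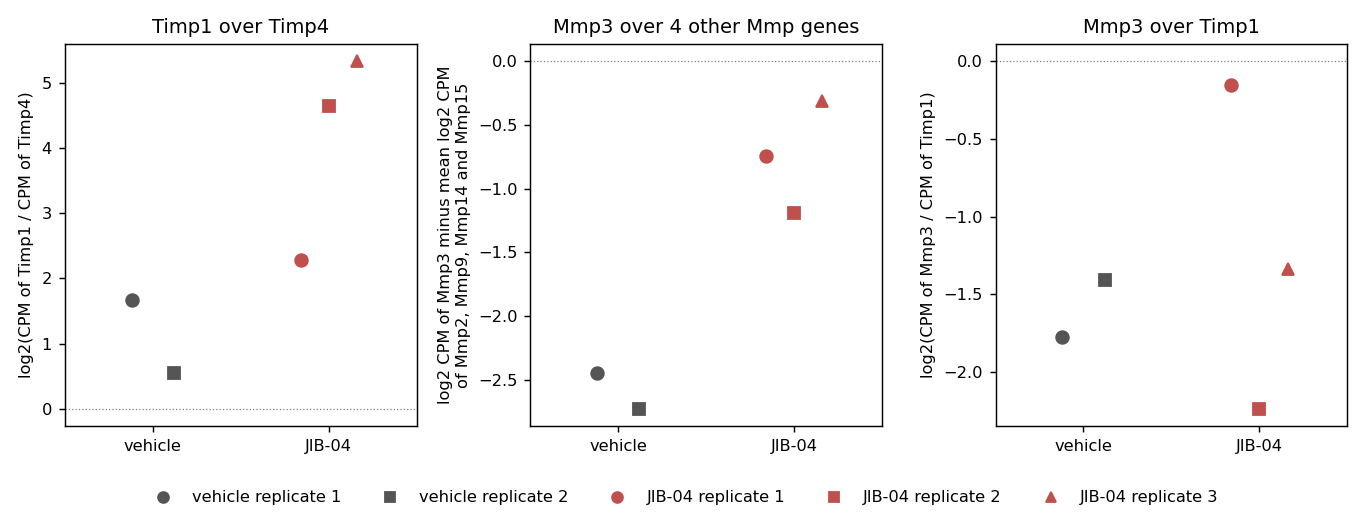
Log2 ratios per library: Timp1 over Timp4 (left), Mmp3 over the mean of 4 other proteases (middle) and Mmp3 over Timp1 (right), with vehicle in grey and JIB-04 in red. The groups are apart in the left and middle panels and overlap in the right one, where JIB-04 replicate 1 lies highest at -0.15.

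Levels of different genes were compared as CPM per kilobase of exon, with GENCODE exon lengths inside the gene spans of the files. In vehicle the order was Timp2 (54.3 ± 5.2), Timp3 (47.2 ± 0.46), Mmp2 (32.9 ± 0.69), Mmp15 (13.9 ± 0.64), Timp1 (10.4 ± 3.5), Mmp14 (4.13 ± 0.39), Timp4 (2.31 ± 0.46), Mmp3 (1.66 ± 0.27) and Mmp9 (0.242 ± 0.0016 CPM per kb, mean ± SD, n = 2). The values of the 2 vehicle libraries did not overlap between any neighbours in this order. In JIB-04 (n = 3) the third was Timp1 at 36.7 ± 22.5 CPM per kb and the sixth Mmp3 at 6.69 ± 3.16, ahead of Mmp14 at 6.23 ± 1.62. There the libraries overlapped between Timp2 and Timp3, Timp3 and Timp1, Timp1 and Mmp2, and Mmp3 and Mmp14. Timp1 made up 10.7% and 7.25% of the summed TIMP level per kb in vehicle and 10.8%, 28.2% and 32.2% in JIB-04. Timp4 made up 1.66% and 2.43% in vehicle and 1.08%, 0.550% and 0.391% in JIB-04. Mmp3 made up 3.48% and 2.80% of the summed protease level in vehicle and 9.0%, 7.65% and 16.3% in JIB-04. These shares rest on the annotated lengths, and the authors' gene models may differ. Timp4 has 1814 bases of exon inside the files' span and 5894 in the whole annotation.

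The rest of the metalloproteinase family and its regulators had 0 genes past limma's threshold. Of 18 other Mmp genes listed, 14 were in the files and 10 were tested, with 6 positive and 4 negative log2 fold changes and a median of 0.08. Over all genes tested 46.9% were positive and the median was -0.01, and the other lists are to be read against these values. Mmp8 and Mmp25, a membrane-anchored protease of leukocytes, were the 2 of 10 tested genes higher in every JIB-04 library, against 10.7% of all genes. Mmp25 was at 0.30 and 0.23 CPM in vehicle and 0.42, 0.51 and 0.51 CPM in JIB-04. Mmp17, a further membrane-anchored member, was at 3.36 and 2.64 CPM in vehicle and 2.04, 2.25 and 2.76 CPM in JIB-04. All 18 ADAM and ADAMTS genes listed were tested, with 15 positive values and a median of 0.16. Adam8, a protease of leukocytes, was at 2.12 and 1.34 CPM in vehicle and 2.64, 3.40 and 4.12 CPM in JIB-04 (limma log2 fold change 0.69, SE 0.19, adjusted p = 0.630). The general sheddase Adam10 and the aggrecanase Adamts5 were the 2 others with every JIB-04 library above vehicle, at log2 fold changes of 0.22 and 0.19. That made 3 of the 18 genes, against 10.7% of all genes. Adamts1, also a proteoglycan protease, had overlapping groups at a log2 fold change of 0.33.

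Activators and other inhibitors numbered 13 tested of 15, with 10 positive values and a median of 0.18. Plau, the urokinase that generates plasmin, was at 2.55 and 2.31 CPM in vehicle and 3.15, 5.09 and 3.38 CPM in JIB-04. Its receptor Plaur was at 1.18 and 1.17 CPM in vehicle and 1.29, 2.89 and 3.21 CPM in JIB-04, where replicate 1 was the lowest as for Timp1. Tfpi2, a serine protease inhibitor of the matrix, was the other gene of the list with every JIB-04 library above vehicle (log2 fold change 0.27). With Plau and Plaur that made 3 of the 13, against 10.7% of all genes. Lrp1, a receptor that clears proteases, had overlapping groups (0.28). Plasmin is known to activate metalloproteinase precursors.

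Inducers and transcription factors known to act on Mmp3, Mmp9 or Timp1 numbered 21 tested of 22, of which 19 had positive values, with a median of 0.18. Socs3, a target and inhibitor of the signalling of IL-6 type cytokines, was at 6.66 and 4.49 CPM in vehicle and 7.5, 13.5 and 23.5 CPM in JIB-04 (limma log2 fold change 1.15, SE 0.41, adjusted p = 0.748). Il1r1, the interleukin 1 receptor, was at 19.3 and 17.6 CPM in vehicle and 20.3, 25.3 and 28.4 CPM in JIB-04. Osmr, the oncostatin M receptor, was at 42.0 and 35.7 CPM in vehicle and 41.4, 66.2 and 67.4 CPM in JIB-04, and Junb, a subunit of AP-1, at 26.8 and 19.99 against 23.5, 42.1 and 49.0 CPM. For both, JIB-04 replicate 1 lay between the vehicle libraries, as for Timp1. Jun and Jund, also AP-1 subunits, held the 2 negative log2 fold changes of the list (-0.27 and -0.02). Jun was at 138 and 145 CPM in vehicle and 103, 99.3 and 156 CPM in JIB-04. Fos, Fosb, Fosl1 and Fosl2 had positive values, and the groups of all these AP-1 genes overlapped. Il6 had 6 and 2 reads in vehicle and 8, 24 and 117 in JIB-04, Il1b was at 0.46 and 0.65 against 0.99, 0.78 and 2.64 CPM, and Il6st had a log2 fold change of 0.06, all 3 with every JIB-04 library above vehicle. Il6 and Il1b were highest in JIB-04 replicate 3, as was Mmp3. Osm, which was not tested, was also higher in every JIB-04 library, at 0.05 and 0.10 against 0.21, 0.21 and 0.37 CPM. In this list 5 of the 21 tested genes had every JIB-04 library above vehicle, against 10.7% of all genes.

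Matrix substrates of these proteases had 17 positive values of 19 and a median of 0.24. Spp1, or osteopontin, was at 2.12 and 1.14 CPM in vehicle and 2.58, 10.7 and 14.7 CPM in JIB-04 (limma log2 fold change 1.75, SE 0.59, adjusted p = 0.748). The collagens Col3a1 and Col1a1 had log2 fold changes of 0.59 and 0.41 with overlapping groups, and Dcn, a collagen-binding proteoglycan, 0.20 with every JIB-04 library above vehicle. With Spp1 that made 2 of the 19 substrates, near the 10.7% of all genes. Macrophage markers had the highest median of the lists at 0.65, with 11 of 13 positive, and fibroblast markers were at 0.18 with 8 of 10 positive. All 10 cardiomyocyte markers were negative, at a median of -0.17, and all 10 red blood cell rows, at -1.23. Neutrophil, endothelial, smooth muscle and mesothelial markers had medians of 0.31, -0.04, -0.06 and -0.05. The neutrophil median rests on the 4 of 10 markers that were tested.

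**Figure D5:**
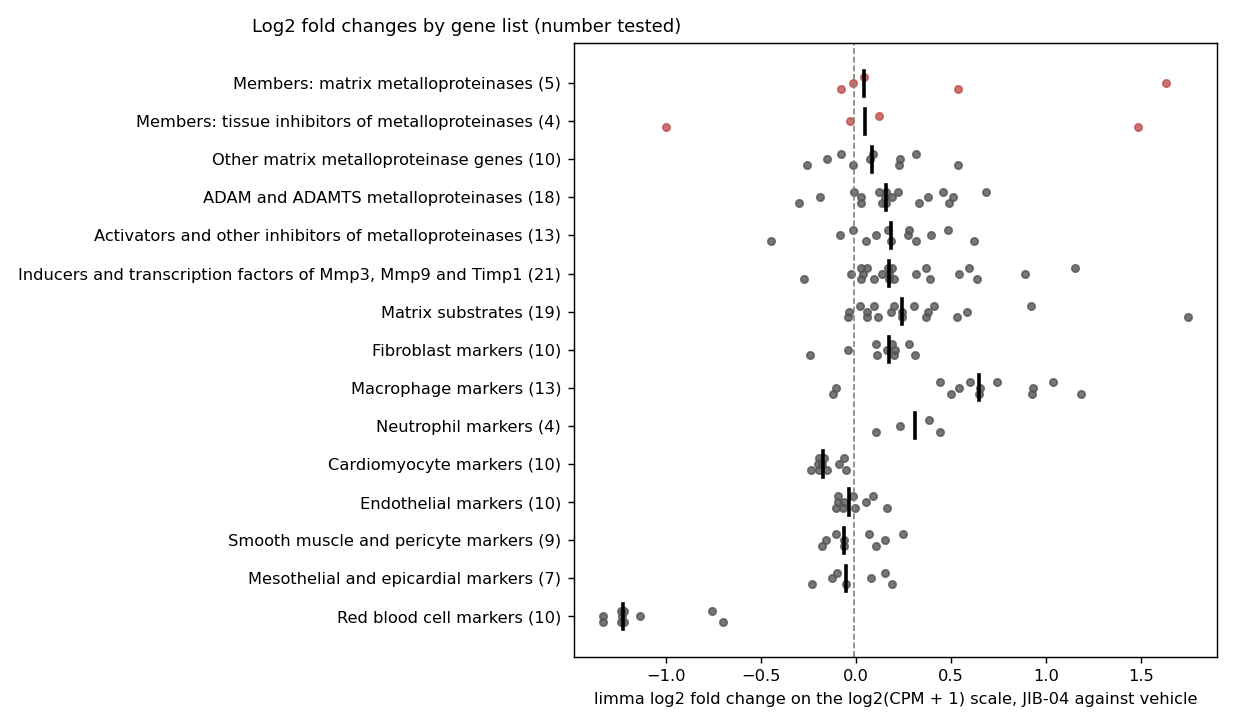
Limma log2 fold changes of the tested genes by list, 1 point per gene, with a black bar at each list's median and a dashed line at the median of all genes tested (-0.01). The 2 lists of the 9 genes, in red, spread from -1.0 to 1.63 around medians of 0.04 and 0.05, while the macrophage markers have their median at 0.65 and the red blood cell markers at -1.23.

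Patterns over the 5 libraries were compared with 12844 genes of at least 1 CPM on average, by the root mean square difference of log2(CPM + 1) values centred on each gene's mean. Nearest to Mmp3 were Selp (0.26), an adhesion molecule of platelets and endothelium, the lysosomal protease Ctss (0.26), Serpina3n (0.27), an acute phase protease inhibitor, and the chemokine Ccl7 (0.30). Ctss was at 21.0 and 15.4 CPM in vehicle and 29.2, 35.0 and 65.7 CPM in JIB-04, highest in replicate 3 as for Mmp3. Nearest to Timp1 were Spp1 (0.16), Prg4 (0.25), the lubricating proteoglycan of joints, Sprr1a (0.37), a small proline-rich protein, Thbs1 (0.40), a matricellular protein, and Csf2rb2 (0.40). Prg4 was at 14.5 and 13 CPM in vehicle and 18.0, 56.3 and 94.4 CPM in JIB-04, with replicate 1 again apart from replicates 2 and 3. Nearest to Timp4 were A730036I17Rik (0.20), Setdb2 (0.22), a histone methyltransferase family member, Mfsd7c (0.22), and the transporters Slc15a2 (0.23) and Slc17a7 (0.24). Slc15a2 was at 8.71 and 12 CPM in vehicle and 4.20, 5.63 and 2.53 CPM in JIB-04. A difference of 0 would be an identical pattern, and the spread of each of the 3 genes about its own mean was 0.88 for Mmp3, 1.07 for Timp1 and 0.52 for Timp4. Being alike over 5 libraries is a description.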

How the data were processed

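RNA was measured by sequencing in 5 heart libraries from a strand-preserving mRNA kit, per the labels. The submitters' processing notes name build mm10 and, without a role, edgeR, featureCounts, Subread, TopHat2 2.0.12, Picard 1.127 and FastQC 0.11.2. The deposited values are headed CPM but sum to 954981 to 1046902, so they were treated as a normalised signal. How the authors scaled them is not given in the sources used here. All values (100%) were whole multiples, within 0.01, of the value of 1 read, so whole reads were recovered. In each file 1 blank row was left out. Starts in the files count from 0 and were raised by 1.

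Genes were kept by filterByExpr (10 reads, 15 in total), and all 9 genes passed. limma 3.58.1 (R 4.3.3) with a mean-variance trend on log2(CPM + 1) was the main test, with 3 residual degrees of freedom and Benjamini-Hochberg adjustment over all genes. Its log2 fold changes understate low genes. edgeR 4.0.16, limma-voom and DESeq2 1.42.0 were run on recovered reads, besides other pseudocounts, filters, scaling, a replicate block and each library left out. Members and lists were chosen with earlier results of these data known. Genes named were the 9, the 4 smallest p per list that is discussed, non-overlapping genes of the 4 lists of proteases and their regulators, and the 5 nearest patterns, of which 1 is not reported here.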

Additional observations from a re-analysis of the deposited data

How the results depend on the processing

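With DESeq2 on recovered reads 85 genes passed, 69 higher and 16 lower, and 2 of the 9 genes, Mmp3 and Timp4. With limma 0 to 29 genes and 0 to 1 of the 9 passed when 1 library was left out. Only the fit without JIB-04 replicate 1 gave calls, 29 genes and Timp1. With 1 library left out DESeq2 called 0 to 4 of the 9, a check chosen after seeing the data. The 4 (Mmp3, Mmp14, Timp1 and Timp4) came without JIB-04 replicate 1, where DESeq2 called the most genes, 420 higher and 143 lower, and the 0 without vehicle replicate 2, where it called 1 higher and 3 lower. Mmp3 stayed called in 4 of 5 such fits and was lost without vehicle replicate 2 (DESeq2 adjusted p = 0.0905). Timp4 stayed called only without JIB-04 replicate 1, and had DESeq2 adjusted p from 0.0689 to 1.0 in the other 4 fits. Fits without 1 vehicle library assume that the lone one varies like the JIB-04 libraries. With the replicate number as a block 0 genes and 0 of the 9 passed, at 1.30 for Mmp3 and -0.87 for Timp4 on the log2 scale. Libraries with the same number had deviations correlated at -0.133 and -0.135. The deviations of the 2 vehicle libraries mirror each other, so these values cannot decide whether a shared number marks a pair. The ranges over the 14 alternatives do not include the DESeq2 fits with 1 library left out. Those fits reached log2 fold changes of 2.21 for Mmp3, 2.26 for Timp1, 0.80 for Mmp14 and -1.57 for Timp4. Over the 14 alternatives log2 fold changes ran from 1.30 to 2.02 for Mmp3, 1.10 to 2.17 for Timp1, 0.38 to 0.75 for Mmp14 and -1.38 to -0.83 for Timp4. Adjusted p over these alternatives ran from 6.17e-05 to 1.0 for Mmp3, 0.0312 to 1.0 for Timp1 and 0.00689 to 1.0 for Timp4. Signs changed for 3 genes near 0. With no normalisation factor Timp3 was at 0.023 and Mmp9 at 0.0071, and Mmp9 was at 0.094 with edgeR and 0.091 with DESeq2. With 1 library left out of the limma fit Mmp2 ranged from -0.036 to 0.12, Mmp9 from -0.28 to 0.18 and Timp3 from -0.14 to 0.11. The DESeq2 values ranged more widely for Mmp9, from -0.68 to 0.46. The cause was not tested. Mmp9 had 12 to 55 reads per library.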
